A study of Mus musculus with 6 samples.

Results

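The nuclear genes of oxidative phosphorylation were followed in mouse retinal ganglion cells (RGCs), the neurons whose axons form the optic nerve, at 3 ages. Members were all gene symbols of the expression table that begin with Nduf, Uqc, Atp5 or Cox4 to Cox8, together with Sdha, Sdhb, Sdhc, Sdhd and Cycs. This naming rule found 92 of 17027 listed gene symbols. Of these, 43 were counted with complex I, 4 with complex II, 11 with complex III, 15 with complex IV, 18 with complex V and 1 (Cycs) as the mobile electron carrier. The rule takes in 13 assembly and other factors beside 79 structural subunits and cytochrome c, and it takes in a pair of symbols named as pseudogenes (Ndufab1-ps and Atp5k-ps2). Both pseudogene symbols are counted within the 79, Ndufab1-ps with the accessory members of complex I and Atp5k-ps2 with the membrane members of complex V. Ndufa4 and its paralog Ndufa4l2 carry complex I names but were counted with complex IV, where the Ndufa4 protein is found.

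Every group was wild-type C57/6NCrl: cells from embryonic day 18 (E18), from postnatal day 5 (P5) and from mice 8 weeks old (Adult), with 2 libraries per age. The cells were panned on an antibody to Thy1, an RGC surface antigen, after panning had removed macrophages and, according to the sample protocols, amacrine cells. PolyA RNA was sequenced as paired reads of 100 bases. Levels are given as FPKM, a count of fragments divided by transcript length and by the mapped fragments of the library, summed over the isoforms of a gene.

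Oxidative phosphorylation is carried out by protein complexes of the inner mitochondrial membrane. Complexes I and II take electrons from NADH and succinate, complex III passes them to cytochrome c, complex IV hands them to oxygen, and complex V, the ATP synthase, uses the proton gradient that complexes I, III and IV build. Most subunits are encoded in the nucleus and imported, while a small set of core subunits is encoded in mitochondrial DNA. Neurons of the retina depend strongly on this pathway, and RGCs are the cells lost in Leber hereditary optic neuropathy, a disease of mitochondrially encoded complex I genes.

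The Adult libraries differed from the younger ones in more than these genes. The summed level of 15 RGC markers was 569 and 377 FPKM in Adult, against 4663 to 5290 FPKM in the 4 younger libraries. Markers of rods summed to 6669 and 819 FPKM in Adult replicates 1 and 2, against at most 12.4 FPKM in any younger library, and all 14 were detected in both Adult libraries. Cone markers rose in 7 of 8 tested genes against P5 and summed to 86.2 and 82.2 FPKM in Adult, against at most 6.17 FPKM in any younger library. Amacrine cell markers rose in 8 of 10 and fell in 1, and summed to 1349 and 1512 FPKM in Adult, against 765 to 1038 FPKM at the younger ages, although panning was meant to remove these cells. The median amacrine marker was 61.2 and 93.4 FPKM in Adult, against at most 2.95 FPKM in any younger library. Bipolar cell markers rose in 9 of 10 and fell in 1, and their median was 11.8 and 8.85 FPKM in Adult, against at most 0.192 FPKM in any younger library. Their sum was 149 and 157 FPKM in Adult, within the 133 to 254 FPKM of the younger ages. This list shares Isl1 with the RGC markers, so its sum is no measure of bipolar cells alone. Markers of Müller glia summed to 1515 and 1818 FPKM in Adult, against 206 to 244 FPKM at the younger ages. Their part in the differences below was not tested, and fewer cells of a type cannot be told apart from less RNA per cell in such bulk samples. E18 replicate 1 stood apart from replicate 2 by progenitor and cell cycle markers (131 against 29.2 FPKM summed over 11 genes) and erythrocyte markers (16.2 against 1.05 FPKM over 4 genes).

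The respiratory chain genes were short and abundant at every age. The median member stood at 67.6 FPKM (E18), 82.1 FPKM (P5) and 62.7 FPKM (Adult). Atp5b, the catalytic β subunit of the ATP synthase, was the highest at each age, with 466 and 496 FPKM (E18), 623 and 543 FPKM (P5) and 505 and 455 FPKM (Adult). The 13 assembly and other factors were far lower, with medians of 16.4 FPKM (E18), 17.1 FPKM (P5) and 19.0 FPKM (Adult). The main isoform of a member had a median length of 720 bases, against 2580 bases over all 14390 tested genes, and 67.4% of members were under 1000 bases, against 17% of all tested genes. All 92 members passed the filter of a mean of at least 1 FPKM over the libraries.

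Summed over its genes in the values as deposited, each complex had its highest mean at P5 and its lowest in Adult. Complex I summed to 2641 and 2758 FPKM (E18), 3449 and 2947 FPKM (P5) and 2271 and 2239 FPKM (Adult). Complex IV summed to 2264 and 2318 FPKM (E18), 3062 and 2618 FPKM (P5) and 1581 and 1573 FPKM (Adult). For both complexes, the Adult libraries lay below all 4 younger libraries, and the P5 libraries lay above those of E18. The make-up of the pathway also differed within libraries, where library scale plays no part. Complex IV took 27.6% and 27.1% (E18), 28.3% and 28.2% (P5) and 23.3% and 23.9% (Adult) of the members' summed FPKM, so its Adult share was the lower in both libraries. Complex I took 32.2% of this sum in both E18 libraries, 31.8% in both P5 libraries and 33.5% and 34.0% in Adult.

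**Figure D1:**
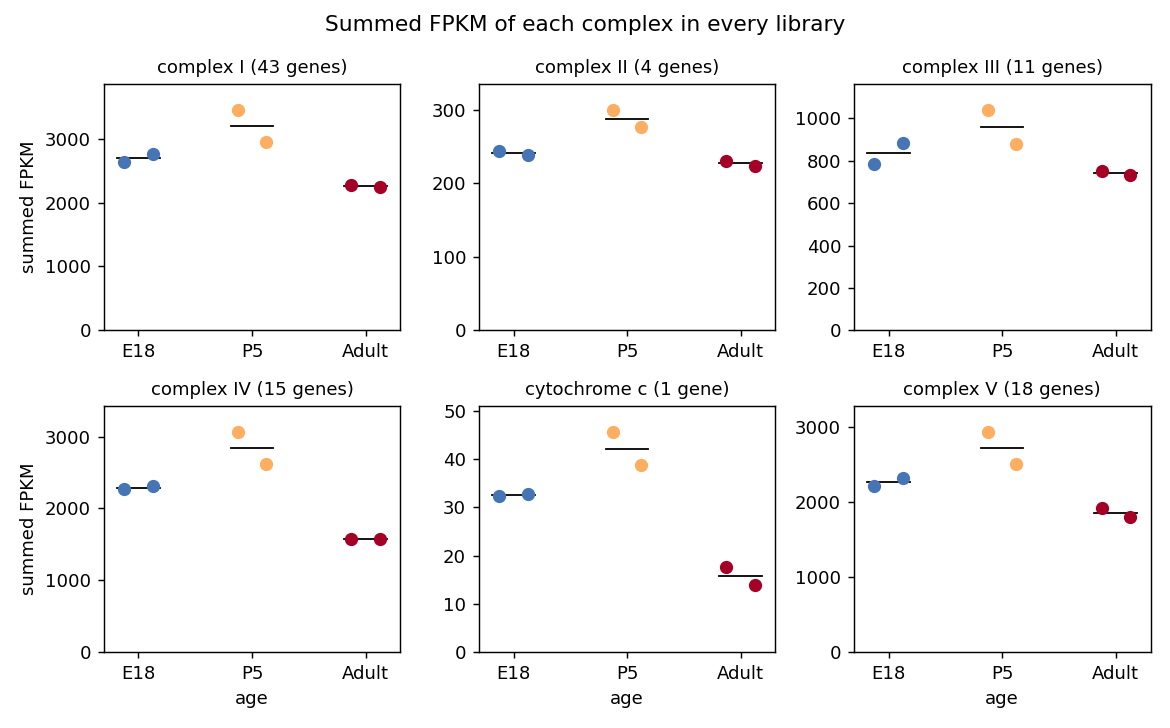
Summed FPKM (vertical axes, each from 0) of the genes of each complex by age (horizontal axes), with 1 point per library and a line at the mean of the 2 libraries of an age. The complex IV points lie at 1581 and 1573 FPKM in Adult, under all points of E18 and P5, and P5 library a lies above P5 library b in every panel.

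Differences between ages were tested on log2(FPKM + 1) with limma across all 14390 genes, with p-values adjusted by the Benjamini-Hochberg method over all of them. A gene is said to have risen or fallen where its adjusted p is under 0.05. The share of all tested genes that passed in the same direction is the background against which counts of members are given.

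Between E18 and P5, most respiratory chain genes had slightly higher values at P5, and few passed the test. Of the 92 members, 5 rose, against 5.52% of all genes, and by limma 0 fell, against 4.95%. At an unadjusted p under 0.05, 36 were higher, or 39.1%, against 14.2% of all genes, and 0 lower, against 15.1%. The 5 were Ndufa5, Ndufa9 and Ndufb9 of complex I, Ndufa4 of complex IV and Atp5g1 of complex V, so the count of called members was close to the background of 5.52%. The median log2 change of the members was 0.24, against -0.03 for all genes, and 83 of 92 changes were positive. In 62 members both P5 libraries lay above both E18 libraries, a pattern that 29.0% of all genes had, and in 4 both lay below, against 34.2%.

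Ndufa5, an accessory subunit of the peripheral arm of complex I, had 163 and 143 FPKM at P5, against 83.5 and 91.9 FPKM at E18. Its P5 libraries both stood above the E18 libraries, with a log2 change of 0.80 ± 0.11 (SE, limma adjusted p = 0.0145). Atp5g1, which encodes the c subunit of the rotating membrane ring of ATP synthase, had 165 and 152 FPKM at P5, against 97.3 and 105 FPKM at E18. The groups did not overlap, and the log2 change was 0.65 ± 0.11 (SE, limma adjusted p = 0.025). Ndufa4, a complex IV subunit, had 376 and 305 FPKM at P5, against 219.6 and 225 FPKM at E18, a log2 change of 0.60. Ndufa9 and Ndufb9, both accessory subunits of complex I, changed by log2 values of 0.45 and 0.41.

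The P5 libraries differed from each other in these genes. P5 library a was higher than library b in 86 of 92 members, by a median log2 difference of 0.21, against -0.01 over all genes. Leaving out library a gave a median log2 change of 0.15 from E18 and leaving out library b gave 0.36, and 0 and 3 members rose in these fits. Leaving out E18 replicate 1 or E18 replicate 2 likewise left 0 risen members and 1 that fell, Uqcrc1 without replicate 1 and Ndufa4l2 without replicate 2. Leaving out Adult replicate 1 or Adult replicate 2 left 2 risen members, Atp5g1 and Ndufa5. Rescaling to TPM, in which every library has the same total over all isoforms, gave 22 risen members, against 10.3% of all genes, and a median of 0.38, with a median of 0.08 for all genes.

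Between P5 and Adult, the respiratory chain genes were mostly lower in Adult. Of 92 members, 57 fell, against 33.7% of all tested genes, and 7 rose, against 26.2%. The median log2 change was -0.48 for the members and -0.07 for all genes. Both Adult libraries lay below both P5 libraries in 67 members, against 43.1% of all genes, and above them in 9, against 35.6%. By complex, 24 of 43 members fell in complex I, 3 of 4 in complex II, 6 of 11 in complex III, 10 of 15 in complex IV and 13 of 18 in complex V, and Cycs fell. The 7 that rose were Sdha, Cox4i2, Uqcc1, Atp5sl, Ndufs7, Atp5d and Ndufa13.

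The direction of the median held under each scaling, but the counts moved with it. Rescaling to TPM shifted the median of all genes to -0.76 and gave 84 fallen and 2 risen members, where 59.8% of all genes fell and 11.9% rose. Rescaling to an equal sum over protein-coding genes shifted the median of all genes to 0.21 and gave 29 fallen and 9 risen members, where 23.3% of all genes fell and 36.7% rose. Quantile normalization gave 33 fallen and 10 risen members, where 31.7% of all genes fell and 26.2% rose. Relative to the median of all genes, the median member lay at -0.40 in the values as deposited, -0.46 in TPM, -0.36 in the protein-coding scale and -0.12 after quantile normalization. Without Adult replicate 1, the library with the highest rod marker sum, 47 members fell and 5 rose. Without Adult replicate 2, 39 fell and 8 rose.

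**Figure D2:**
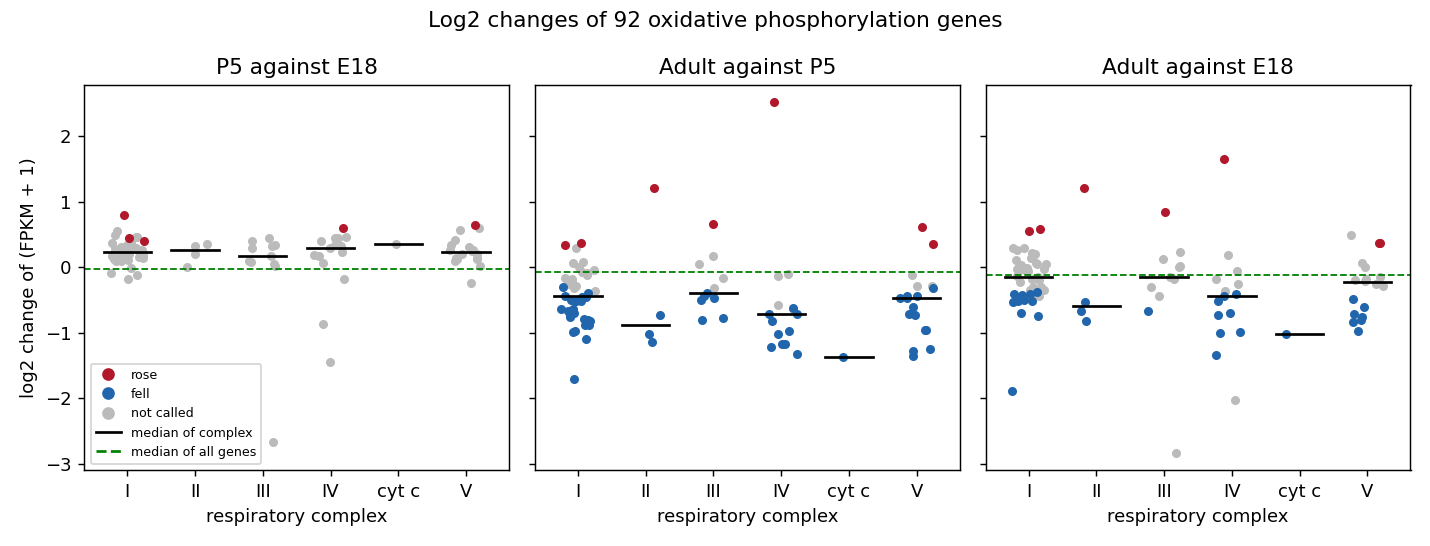
Log2 change of (FPKM + 1) of each member (points, vertical axis) by complex (horizontal axis) in 3 comparisons of ages. Black lines mark the median of a complex and the green dashed line that of all 14390 tested genes, which lies at -0.03, -0.07 and -0.11. Complex IV has a median of -0.71 in Adult against P5, and single risen points stand above the rest in complexes II (Sdha), III (Uqcc1) and IV (Cox4i2).

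Against E18, the Adult levels differed less and in a way that depended on the scale. Of 92 members, 31 fell, against 34.4% of all genes, and 7 rose, against 25.3%. The share that fell was thus close to that of all genes. The median log2 change was -0.24 for members and -0.11 for all genes in the values as deposited, and it was 0.12 in the protein-coding scale and 0.05 after quantile normalization, where 31 and 25 members rose and 16 fell in each. The share of all genes that rose was 37.5% and 26.8% under these scalings, so the members' risen counts were close to the background. The share of all genes that fell was 23.1% and 32.7%, higher than that of the members (16 of 92). In TPM 76 fell, against 56.6% of all genes, and 1 rose, against 14.2%. Both Adult libraries lay below both E18 libraries in 55 members, against 47.0% of all genes, and above them in 18, against 37.1%. Without E18 replicate 2, 20 members fell. The same 7 symbols rose as against P5, and the comparisons share the Adult libraries.

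Complex I, the NADH dehydrogenase, had its widest range of change among the accessory subunits, which surround the catalytic core and are needed for its assembly and stability. Of 30 accessory members, 18 fell, against 33.7% of all genes, and 1 rose, against 26.2%, in Adult against P5, with a median log2 change of -0.48. In the protein-coding scale and after quantile normalization, 9 of the 30 fell in each, against 23.3% and 31.7% of all genes. These counts were near the background. Of the 6 core members, which pass electrons from NADH to ubiquinone, 1 fell and 1 rose, with a median of -0.13 that was 0.20 in the protein-coding scale and after quantile normalization. Ndufs7, the core subunit that holds the last iron-sulfur cluster before ubiquinone, was the risen one. Of the 7 assembly factors named Ndufaf, 5 fell and by limma 0 rose, with none higher at an unadjusted p under 0.05. In the protein-coding scale 1 of these 7 fell and 1 rose, against 23.3% and 36.7% of all genes. The difference between these classes was not tested.

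Ndufa1, a small membrane subunit that is essential for complex I assembly, had 252 and 254 FPKM (E18), 228 and 223 FPKM (P5) and 66.8 and 69.7 FPKM (Adult). Both Adult libraries lay far under the younger 4, which were close to one another. Its log2 change was -1.71 ± 0.09 in Adult against P5 (SE, limma adjusted p = 5.05e-05) and -1.88 ± 0.09 in Adult against E18 (limma adjusted p = 2.82e-05). Ndufa13, also known as Grim19, is another membrane subunit and went the other way. It had 38.5 and 39.6 FPKM (E18), 49.5 and 43.6 FPKM (P5) and 58.2 and 60.4 FPKM (Adult). The ages did not overlap, and the log2 change was 0.34 ± 0.10 in Adult against P5 (SE, limma adjusted p = 0.0282), but -0.40 in TPM. This call was kept in 8 of 16 alternative fits. It was lost without E18 replicate 1 or 2 (0.34 each), P5 library b (0.26), Adult replicate 1 (0.37) or Adult replicate 2 (0.32), without a variance trend and with only the 4 libraries compared. Against E18 the call was lost in TPM alone. The ratio of Ndufa13 to Ndufa1, which a constant factor per library does not alter, was 0.153 and 0.156 (E18), 0.217 and 0.196 (P5) and 0.871 and 0.866 (Adult).

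Ndufs7 had 51.1 and 54.3 FPKM (E18), 55.3 and 63.6 FPKM (P5) and 81.1 and 74.5 FPKM (Adult). Both Adult libraries were above all others, with a log2 change of 0.38 ± 0.11 against P5 (SE, limma adjusted p = 0.0249) and -0.36 in TPM. The call was also lost without E18 replicate 1 or 2 (0.38 each), P5 library a (0.29) or Adult replicate 1 (0.32). Ndufa5 had 72.7 and 69.6 FPKM in Adult, below its P5 level by a log2 of 1.09 and without passing the test against E18 (limma adjusted p = 0.0541). Ndufa12, a subunit of the peripheral arm, had 33.4 and 29.2 FPKM in Adult, against 65.7 and 58.5 FPKM at P5. Among the assembly factors, Ndufaf4 changed the most, with 15.8 and 12.6 FPKM in Adult, against 31.9 and 25.9 FPKM at P5, a log2 change of -0.98. Ndufaf3 was the exception in sign, with 29.2 and 21.3 FPKM in Adult, against 20.6 and 19.7 FPKM at P5, and did not pass the test.

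Ndufv3 encodes an accessory subunit of the flavin-binding module and has a short and a long form that differ by a single coding exon. The gene lies on chr17:31520115-31531331 (mm10, plus strand). The long form holds an extra coding exon of 1092 bases, its exon 3 at chr17:31527310-31528401, which the short form skips. The junctions that tell the forms apart are given from the GRCm38 transcript set, 20 bases on each side, with the bases before the junction in capitals.
Ndufv3 short form, exon 2 to exon 3: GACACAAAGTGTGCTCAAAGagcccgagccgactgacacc
Ndufv3 long form, exon 2 to exon 3: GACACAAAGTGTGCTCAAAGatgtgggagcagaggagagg
Ndufv3 long form, exon 3 to exon 4: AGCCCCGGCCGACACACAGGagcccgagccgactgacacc

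The short form of Ndufv3 stood at 137 and 151 FPKM (E18), 179 and 150.1 FPKM (P5) and 75.0 and 64.9 FPKM (Adult). The long form had 8.92 and 8.11 FPKM (E18), 6.74 and 6.53 FPKM (P5) and 18.4 and 22.0 FPKM (Adult). The forms thus moved in opposite directions, with no overlap between Adult and either younger age in either form. In the limma fit across 34941 isoforms, Adult against P5, the short form fell by a log2 of 1.22 (adjusted p = 0.00153) and the long form rose by 1.47 (adjusted p = 0.00113). The long form rose in TPM as well, by 0.80. It made up 19.1% and 24.5% of the gene's FPKM in Adult, against 3.60% and 4.12% at P5. The gene as a whole fell by 0.88 in Adult against P5 (limma adjusted p = 0.00108).

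**Figure D3:**
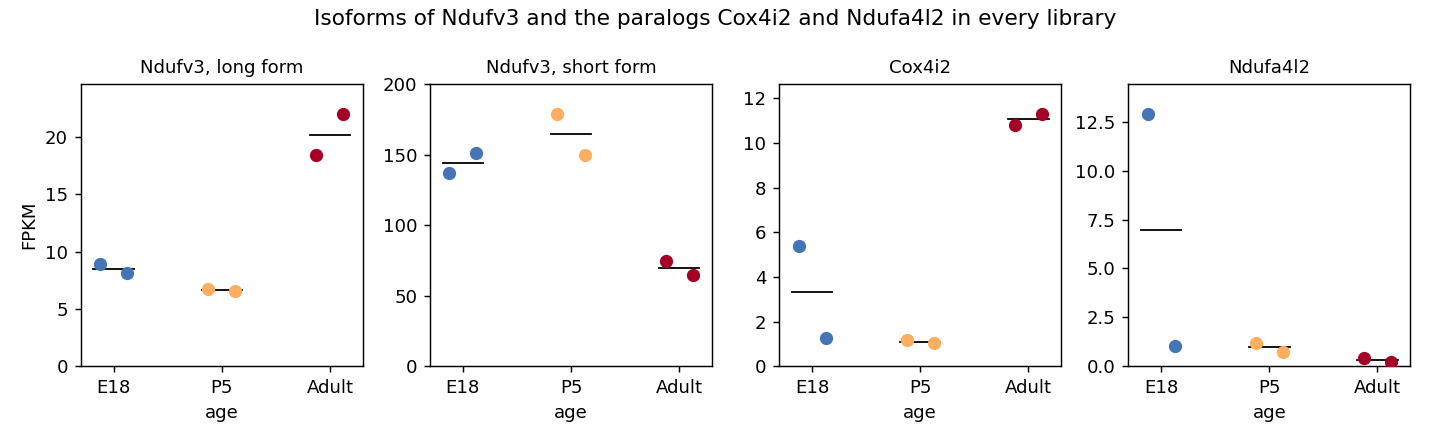
FPKM (vertical axes, each from 0) by age (horizontal axes) for the long and short forms of Ndufv3 and for the genes Cox4i2 and Ndufa4l2, with 1 point per library and a line at the mean of the 2 libraries. The long form lies at 18.4 and 22.0 FPKM in Adult while the short form is lowest there, and the E18 points of Cox4i2 and Ndufa4l2 lie far apart.

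Members were also followed isoform by isoform. Of 335 listed isoforms, 271 were tested. In Adult against P5, 33 rose, against 19.2% of all isoforms, and 90 fell, against 24.1%. In Adult against E18, 20 rose, against 17.9%, and 66 fell, against 26.8%. In P5 against E18, 3 rose, against 0.804%, and 1 fell, against 0.824%. In 17 genes of Adult against P5 at least 1 isoform rose and another fell. The share of all genes with such a split was not computed, so the 17 are not read as a trait of these genes. TPM gave 11 risen and 152 fallen isoforms in that comparison, and the shares of all isoforms in TPM were not computed. In Ndufs7, which was chosen here after its values were seen, the main coding isoform had 64.3 and 58.4 FPKM in Adult, against 22.5 and 28.6 FPKM at P5. A non-coding transcript of Ndufs7 had 0.506 and 4.85 FPKM in Adult, against 29.4 and 29.5 FPKM at P5. The listed difference was thus larger for the coding form than for the gene sum, and a shift of shared reads between these isoforms was not tested. FPKM of overlapping isoforms are estimates that share reads, and their uncertainty is not in these values.

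Complex II, succinate dehydrogenase, has no mitochondrially encoded subunit and also takes part in the citric acid cycle. Its genes split in Adult: Sdha, the flavoprotein that oxidizes succinate, rose, and the other 3 fell. Sdha had 45.3 and 43.2 FPKM (E18), 47.0 and 42.4 FPKM (P5) and 102 and 107 FPKM (Adult). Both Adult libraries were above every younger library, and the younger ages overlapped. The log2 change was 1.21 ± 0.10 in Adult against P5 (SE, limma adjusted p = 0.000201) and 1.22 ± 0.10 in Adult against E18 (limma adjusted p = 0.000162). Both held in every alternative fit, with log2 changes of 0.47 to 1.57 against P5. The full-length coding isoform of Sdha carried most of it, with 88.9 and 96.6 FPKM in Adult, against 42.3 and 36.5 FPKM at P5.

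Sdhb, the iron-sulfur subunit that takes electrons from Sdha, had 70.2 and 71.2 FPKM (E18), 94.7 and 87.0 FPKM (P5) and 45.6 and 43.1 FPKM (Adult). Adult lay below both other ages, with a log2 change of -1.02 ± 0.10 in Adult against P5 (SE, limma adjusted p = 0.000306). Sdhd, a membrane anchor that helps bind heme and ubiquinone, had 65.4 and 68.4 FPKM (E18), 81.4 and 86.2 FPKM (P5) and 38.7 and 36.2 FPKM (Adult), a log2 change of -1.14 ± 0.10 against P5 (SE, limma adjusted p = 0.000207). Sdhc, the other anchor, had 45.0 and 36.5 FPKM in Adult, against 76.6 and 60.5 FPKM at P5, a log2 change of -0.73 that did not pass in the protein-coding scale (-0.41), after quantile normalization (-0.42) or without Adult replicate 2 (-0.59). Sdhb, Sdhc and Sdhd were all lowest in Adult. The proteins of this complex are held together one to one, and the ratio of Sdha to Sdhb in FPKM was 0.646 and 0.607 (E18), 0.496 and 0.488 (P5) and 2.23 and 2.49 (Adult). The ratio of Sdhb to Sdhd stayed between 1.01 and 1.19 in all 6 libraries. Adult replicates 1 and 2, with 102 and 107 FPKM of Sdha, had 6669 and 819 FPKM of summed rod markers. Their sums were 1515 and 1818 FPKM for Müller glia markers and 1349 and 1512 FPKM for amacrine cell markers. The part of these cells in the level of Sdha was not tested.

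**Figure D4:**
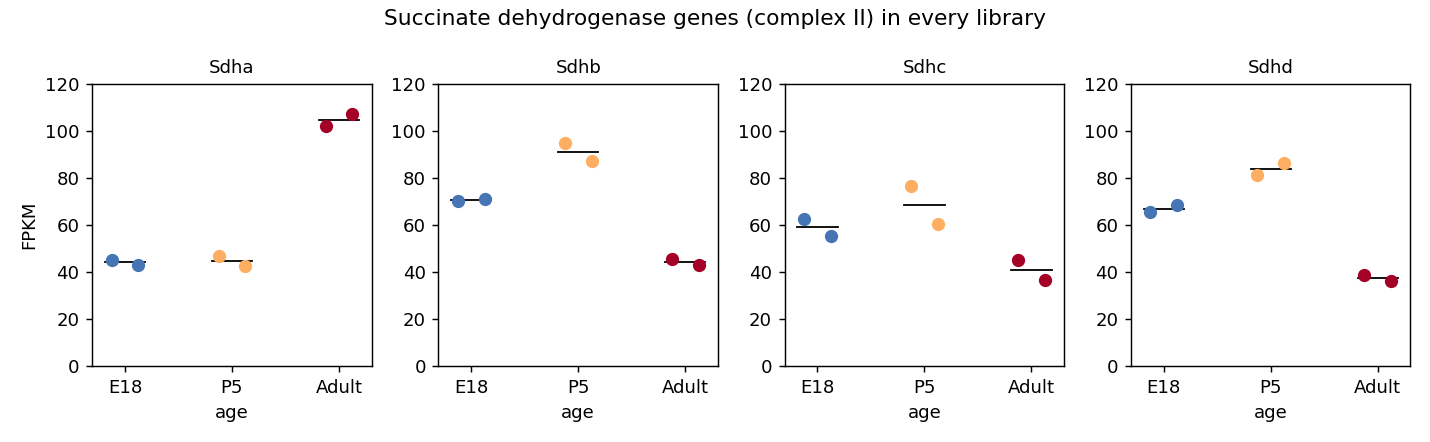
FPKM (vertical axes, 0 to 120) of the 4 succinate dehydrogenase genes by age (horizontal axes), with 1 point per library and a line at the mean of the 2 libraries. Sdha lies at 102 and 107 FPKM in Adult and below 50 FPKM at the younger ages, while Sdhb, Sdhc and Sdhd are lowest in Adult.

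The promoters of the catalytic genes Sdha and Sdhb and of the anchor Sdhd, as RefSeq gives them for GRCm38.p6, are printed here because these genes of the complex went apart. Each runs from 250 bases before to 50 bases after the gene's start, 5′ to 3′ on the gene's strand, with motif matches in capitals. Both strands were searched for GCATGCGC, the core of the NRF1 motif, for CCGGAAGT (ETS factors), AAGATGGCG (YY1) and TCAAGGTCA (estrogen-related receptors).
Sdha promoter, chr13:74350191-74350490, minus strand: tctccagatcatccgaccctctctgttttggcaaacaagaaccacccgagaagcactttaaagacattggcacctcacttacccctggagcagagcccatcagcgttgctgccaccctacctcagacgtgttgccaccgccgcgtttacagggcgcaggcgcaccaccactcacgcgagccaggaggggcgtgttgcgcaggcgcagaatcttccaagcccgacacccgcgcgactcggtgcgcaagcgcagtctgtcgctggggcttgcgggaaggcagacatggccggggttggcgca
Sdhb promoter, chr4:140961021-140961320, plus strand: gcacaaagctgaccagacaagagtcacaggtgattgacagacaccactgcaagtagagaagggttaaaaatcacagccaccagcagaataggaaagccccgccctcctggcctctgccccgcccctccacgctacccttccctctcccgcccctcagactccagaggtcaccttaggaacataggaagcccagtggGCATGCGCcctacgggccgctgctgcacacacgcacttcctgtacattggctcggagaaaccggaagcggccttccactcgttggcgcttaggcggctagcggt
Sdhd promoter, chr9:50603800-50604099, minus strand: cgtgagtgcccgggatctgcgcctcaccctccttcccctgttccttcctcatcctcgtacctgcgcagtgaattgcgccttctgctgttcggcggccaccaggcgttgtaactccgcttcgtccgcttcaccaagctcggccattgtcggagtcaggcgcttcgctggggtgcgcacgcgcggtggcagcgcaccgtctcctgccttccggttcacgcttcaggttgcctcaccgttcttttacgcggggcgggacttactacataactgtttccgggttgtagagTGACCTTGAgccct

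Sdhb held the exact letters of the NRF1 core, Sdhd those of the estrogen-related receptor motif, and Sdha none of the searched strings in this window. Only exact strings were searched, so other forms of these motifs are not marked, in Sdha and Sdhd as well. An absent mark is thus not read as an absent site. Promoters were found in the RefSeq table for 74 of 92 members, 79 promoters in all. The NRF1 core was in 16.5% of the members' promoters, against 2.71% of all 32851 promoters, and the YY1 motif in 8.86%, against 1.4%. The ETS motif was in 5.06%, against 3.89%, and the receptor motif in 2.53%, against 0.423%. These matches are letters in a sequence and no binding was measured.

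In complex III, the cytochrome bc1 complex, 6 of the 8 subunits fell in Adult against P5, against 33.7% of all genes, with a median log2 change of -0.44. In the protein-coding scale and after quantile normalization 2 of the 8 fell in each, against 23.3% and 31.7% of all genes. These counts were close to the background. After quantile normalization the median of the whole complex was -0.07, against -0.06 for all genes. Uqcrfs1, the Rieske iron-sulfur protein, had 60.2 and 56.4 FPKM in Adult, against 103 and 98.0 FPKM at P5, a log2 change of -0.77 ± 0.09 (SE, limma adjusted p = 0.000712). Uqcrq, a small subunit, had 45.7 and 39.4 FPKM in Adult, against 84.4 and 65.5 FPKM at P5, a log2 change of -0.80 that did not pass without Adult replicate 2 (-0.69). Uqcr11, another small subunit, fell by 0.49, and did not pass in the protein-coding scale (-0.16) or after quantile normalization (-0.12). Uqcrh, the hinge protein and the highest of this complex, had 130.2 and 121 FPKM in Adult, against 173 and 141 FPKM at P5, and did not pass (limma adjusted p = 0.066).

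Of the 3 assembly factors of complex III, 1 rose in Adult against P5, against 26.2% of all genes. By limma 0 fell, against 33.7%, with none lower at an unadjusted p under 0.05. The difference from the subunits was not tested. Uqcc1, which is needed for making cytochrome b, had 22.5 and 25.2 FPKM (E18), 26.2 and 28.0 FPKM (P5) and 44.6 and 42.5 FPKM (Adult). Both Adult libraries were above all others, with a log2 change of 0.67 ± 0.11 against P5 (SE, limma adjusted p = 0.00245), but -0.07 in TPM. Isoforms of Uqcc1 that carried the higher sum included transcripts annotated for nonsense-mediated decay, while a coding isoform, chosen after its values were seen, had at most 0.000534 FPKM in Adult, against 3.30 and 1.81 FPKM at P5. Uqcc2 and Uqcc3 did not pass the test. Uqcrc1, a core subunit named here after its values were seen, was listed at 0.0759 and 47.8 FPKM (E18), 0.291 and 0.000124 FPKM (P5) and 0.0391 and 0 FPKM (Adult). One E18 library thus held nearly all of its listed signal, so no age difference was read from it.

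Complex IV, cytochrome c oxidase, had the lowest median change among the complexes with more than 4 members, -0.71 in Adult against P5, with 10 of 15 fallen, against 33.7% of all genes, and 1 risen, against 26.2%. In the protein-coding scale and after quantile normalization, 8 of 15 fell in each, against 23.3% and 31.7% of all genes. Cox6b1, which links the monomers of the dimer, had 274 and 263 FPKM (E18), 337 and 299 FPKM (P5) and 132 and 139 FPKM (Adult). Both Adult libraries were the lowest, with a log2 change of -1.22 ± 0.10 against P5 (SE, limma adjusted p = 0.000196). Ndufa4 had 139 and 131 FPKM in Adult, below E18 as well as P5, with a log2 change of -1.32 ± 0.12 against P5 (SE, limma adjusted p = 0.000285). Cox7c, a small membrane subunit, had 131 and 137 FPKM in Adult, against 330.2 and 279 FPKM at P5, a log2 change of -1.17. Of its main transcript, 55.7% of 31-base stretches also occur in other genes, so its level is uncertain. Cox8a, the highest gene of this list in Adult, had 326 and 329 FPKM in Adult, against 385 and 319.6 FPKM at P5, with overlapping groups.

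Several complex IV subunits exist as paralogs that are used in different tissues. Cox7a2, the common form, fell, with 123 and 125 FPKM in Adult, against 268 and 236 FPKM at P5, a log2 change of -1.02. Cox7a2l, known as a supercomplex factor of complexes III and IV, had 182 and 194 FPKM (E18), 166 and 167 FPKM (P5) and 76.0 and 71.0 FPKM (Adult). Whether its product has this function in the strain used was not examined, and no supercomplex was measured. Cox7a2l fell by 1.17 in Adult against P5 and by 1.34 in Adult against E18 (limma adjusted p = 8.83e-05). Cox7a1, the form of heart and skeletal muscle, was between 1.72 and 7.40 FPKM in all libraries with no called change. Cox6b2, known from testis, was 7.09 and 8.70 FPKM in Adult, against 10 and 7.55 FPKM at P5. Its share of the Cox6b pair was 5.10% and 5.89% in Adult, against 2.88% and 2.46% at P5, as Cox6b1 fell. The Cox6a1 form, common to most tissues, fell by 0.97 in Adult against P5.

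Cox4i2, the paralog of the largest nuclear subunit that is known for lung and for low oxygen, was the one complex IV gene that rose. Cox4i2 (chr2:152754173-152765037, mm10, plus strand) had 5.40 and 1.28 FPKM (E18), 1.16 and 1.03 FPKM (P5) and 10.8 and 11.3 FPKM (Adult). The Adult libraries were above all others, and E18 replicate 1 was above the other younger libraries. The log2 change was 2.52 ± 0.44 in Adult against P5 (SE, limma adjusted p = 0.0035), and it held in all 16 alternative fits with log2 changes of 1.40 to 3.22. In Adult against E18 it was 1.66 ± 0.44 (SE, limma adjusted p = 0.0181), and it did not pass in TPM or without Adult replicate 1 or Adult replicate 2. Ndufa4l2, the low-oxygen paralog of Ndufa4, had 12.9 and 1.06 FPKM (E18), 1.20 and 0.744 FPKM (P5) and 0.416 and 0.232 FPKM (Adult), and no change passed the test. E18 replicate 1 held 5.53% of the Ndufa4 pair as Ndufa4l2, and every other library at most 0.469%.

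Both genes are known from pericytes and vessels, and markers of these cells are given beside them. Ndufa4l2 was lowest in Adult, where the sum of these markers was highest. The endothelial and pericyte markers measured, Kdr, Rgs5 and Pdgfrb, summed to 9.59 and 1.90 FPKM (E18), 2.22 and 2.37 FPKM (P5) and 27.4 and 36.7 FPKM (Adult). Kdr, a receptor of endothelial cells, had 9.41 FPKM in E18 replicate 1, against 1.83 FPKM in replicate 2. Rgs5 and Pdgfrb, defining markers of pericytes, were 6.98 and 11.4 FPKM and 1.32 and 1.60 FPKM in Adult and at most 1.35 FPKM in each younger library. In E18 replicate 1 the median of the 3 markers was 0.118 FPKM, against 0.863 and 0.747 FPKM at P5. The sum in E18 replicate 1 was thus nearly all Kdr, and the pericyte markers were not raised there. No member of this list was at 0 in any library, and its part in the levels of Cox4i2 and Ndufa4l2 was not tested.

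Cytochrome c, encoded by Cycs and carrying electrons from complex III to complex IV, fell in Adult. It had 32.3 and 32.8 FPKM (E18), 45.6 and 38.8 FPKM (P5) and 17.6 and 13.9 FPKM (Adult). Both Adult libraries lay below the younger ones, with a log2 change of -1.37 ± 0.15 against P5 (SE, limma adjusted p = 0.000485) and -1.01 against E18 (limma adjusted p = 0.00152). Cytochrome c1 (Cyc1), the complex III partner that the naming rule leaves out, had 62.6 and 61.3 FPKM in Adult, against 76.7 and 62.7 FPKM at P5, and no called change. The Cycs promoter holds a match to the NRF1 core and is printed to set it beside that of Sdhb, which holds the same match. Of the 31-base stretches of the main Cycs transcript, 31.8% occur elsewhere, spread over 644 other genes, so its level may include reads of other genes.
Cycs promoter, chr6:50566520-50566819, minus strand: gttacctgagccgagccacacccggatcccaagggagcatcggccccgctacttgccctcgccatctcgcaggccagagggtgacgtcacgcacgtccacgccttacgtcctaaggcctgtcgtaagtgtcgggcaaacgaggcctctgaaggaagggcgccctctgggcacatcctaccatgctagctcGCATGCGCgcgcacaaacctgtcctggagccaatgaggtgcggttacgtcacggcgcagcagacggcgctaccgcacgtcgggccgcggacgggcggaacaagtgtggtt

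In complex V, the ATP synthase, most membrane genes fell in the values as deposited and in TPM, and fewer in the protein-coding scale and after quantile normalization. Of 11 membrane and peripheral stalk members, 10 fell in Adult against P5, against 33.7% of all genes, with a median log2 change of -0.60. The 10 include the pseudogene symbol Atp5k-ps2 (-0.72), of whose 31-base stretches 27.2% occur in other genes, mainly Atp5k. In the protein-coding scale 4 fell (Atp5g1, Atp5j2, Atp5k and Atp5o), against 23.3% of all genes, and after quantile normalization 5, against 31.7%. Atp5g1 had 66.4 and 56.9 FPKM in Adult, below both younger ages, and a log2 change of -1.35 ± 0.11 against P5 (SE, limma adjusted p = 0.00021). Atp5o, which joins the stalk to the catalytic head, had 115 and 104 FPKM in Adult, against 277 and 247 FPKM at P5, a log2 change of -1.25. The genes Atp5g1, Atp5g2 and Atp5g3 encode the same mature c subunit with different import signals, and their mix differed by age. Atp5g1 held 29.0% and 30.0% (E18), 35.9% and 37.0% (P5) and 23.8% and 23.0% (Adult) of the FPKM of these 3 genes. Its share was highest at P5, with no overlap between ages. Of the 31-base stretches of their main transcripts, 67.3% of those of Atp5g1 and 87.7% of those of Atp5g2 occur in other genes, so the split is uncertain.

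Of the 5 members of the catalytic head and central stalk, 1 rose and 3 fell in Adult against P5, against 26.2% and 33.7% of all genes. Atp5d, the δ subunit of the central stalk, rose, with 105 and 106 FPKM in Adult, against 84.8 and 78.8 FPKM at P5 (log2 change 0.36 ± 0.09, SE, limma adjusted p = 0.0151), but changed by -0.39 in TPM. Atp5e, the ε subunit beside it, had 94.7 and 88.7 FPKM in Adult, against 205 and 155 FPKM at P5, a log2 change of -0.95. The ratio of Atp5d to Atp5e, which a constant factor per library does not alter, was 0.507 and 0.495 (E18), 0.414 and 0.509 (P5) and 1.10 and 1.19 (Adult). Atp5b had 505 and 455 FPKM in Adult, against 623 and 543 FPKM at P5, and did not pass (limma adjusted p = 0.0781). Atp5a1, the α partner of Atp5b in the head, was listed at 1.14 to 4.90 FPKM from 1 isoform in every library, beside at least 455 FPKM for Atp5b. As the proteins work as partners, a failed estimate of Atp5a1 cannot be told apart from a low level. Its call (-1.28) is counted above, and without it 56 of 91 members fell. Atp5sl, a factor named for complex V but known for complex I assembly, rose by 0.61 in Adult against P5, and changed by -0.10 in TPM.

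The genes of the naming rule were spread over 18 autosomes and the X chromosome as far as they could be placed. Members of every length class had lower median values in Adult. In Adult against P5, the members under 600 bases had a median of -0.52, those from 600 to under 1000 bases -0.46, those from 1000 to under 2000 bases -0.41 and those of 2000 bases or more -0.57, against -0.10, -0.32, -0.16 and -0.02 for all genes of these classes. Over the 92 members, Spearman's rho between length and change was 0.16, and it was 0.09 over all genes, a description across genes that share libraries. Of all members, 52 of 92 shared at least 1 stretch of 31 bases with another gene and 7 shared more than 50% of theirs, with a median of 2.28%. Sdha, Sdhb, Sdhc, Sdhd, Ndufs7, Ndufv3, Atp5d, Uqcc1 and Cox4i2 shared none.

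**Figure D5:**
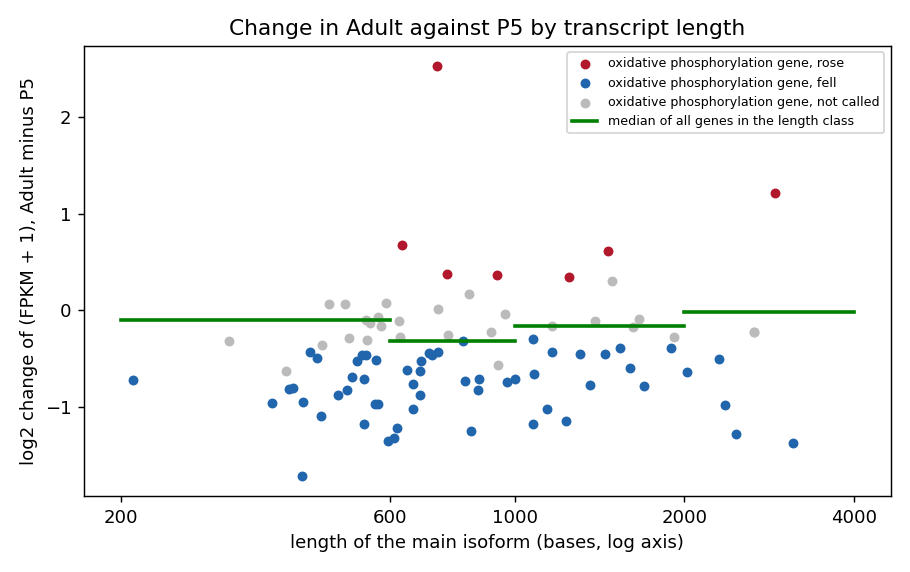
Log2 change of (FPKM + 1) in Adult against P5 (vertical axis) by length of the main isoform in bases (horizontal log axis) for the 92 members, coloured by call. Green lines mark the median of all genes of each length class. Members that fell are found in every length class.

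Genes around the complexes were compared in the same way in Adult against P5, where 26.2% of all genes rose and 33.7% fell. Of 22 complex IV assembly factors, 5 rose (22.7%) and 8 fell (36.4%), shares close to those of all genes. Cox17, which carries copper to the complex, had 52.0 and 47.5 FPKM in Adult, against 17 and 16.9 FPKM at P5, a log2 change of 1.49 ± 0.12 (SE, limma adjusted p = 0.00018). Surf1, an early assembly factor, rose by 0.74 but changed by 0.01 in TPM, and Cox16, another, fell by 0.87. In complex V, Atpif1, which blocks the synthase when it would run backwards, had 125 and 119 FPKM in Adult, against 456 and 376 FPKM at P5, a log2 change of -1.76. Atpaf1, an assembly factor of the catalytic head, rose by 1.10, but did not pass in TPM (0.52) or with isoforms equal to annotated transcripts only (0.20). Of 8 carrier, porin and creatine kinase genes, 1 rose (12.5%) and 4 fell (50%). Of these 8, 1 fell in the protein-coding scale and 1 after quantile normalization, against 23.3% and 31.7% of all genes. Ckb, the brain creatine kinase, rose by 1.43, and Vdac3, a porin, fell by 1.61. Slc25a4, which exchanges ADP for ATP, fell by 0.62, but did not pass in the protein-coding scale (-0.29), after quantile normalization (-0.40) or without Adult replicate 1.

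Of 17 tested genes of pyruvate dehydrogenase and the citric acid cycle, 6 rose (35.3%, against 5.52% of all genes) and 1 fell (5.88%, against 4.95%) in P5 against E18. In Adult against P5, 1 rose (5.88%, against 26.2%) and 9 fell (52.9%, against 33.7%). In the protein-coding scale and after quantile normalization 4 and 5 of the 17 fell, against 23.3% and 31.7% of all genes. These counts were close to the background. Cs, citrate synthase, had 168 and 161 FPKM at P5, against 118 and 129 FPKM at E18. Its Adult values were 53.8 and 52.1 FPKM, and its log2 change in Adult against P5 was -1.62 ± 0.09 (SE, limma adjusted p = 7.22e-05). Pdha1, a pyruvate dehydrogenase subunit, likewise rose by 0.63 in P5 against E18 and fell by 1.20 in Adult against P5. The rises of Cs and Pdha1 in P5 against E18 lost their call when any 1 of the 6 libraries was left out, with log2 changes no lower than 0.35 and 0.50 over all alternatives. Of 22 import and cristae genes, 1 rose (4.55%) and 15 fell (68.2%) in Adult against P5, Tomm22 and Tomm70a by 1.14 each and Opa1 by 1.04.

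Among 23 regulators of mitochondrial genes, 7 rose (30.4%, against 26.2% of all genes) and 4 fell (17.4%, against 33.7%) in Adult against P5. The risen share was close to that of all genes, and the median log2 change was 0.14. Ppargc1a, a coactivator known to drive mitochondrial genes, had 7.45 and 6.01 FPKM in Adult, against 1.35 and 1.53 FPKM at P5, a log2 change of 1.66 ± 0.17 (SE, limma adjusted p = 0.000459). Esrra, a nuclear receptor that works with it, had 19.9 and 22.5 FPKM in Adult, against 6.58 and 7.82 FPKM at P5, a log2 change of 1.44 that did not pass with isoforms equal to annotated transcripts only. Esrrg, a related receptor, rose in P5 against E18 by 0.90, a call kept in 9 of 16 alternative fits, and in Adult against E18 by 2.0. In Ppargc1a, Esrra and Esrrg both Adult libraries stood above all younger ones. The 4 regulators that fell in Adult against P5, named here after their values were seen, went the other way. They were Tefm (-0.91), Tfb2m (-0.68), Tfam (-0.61) and Mterf3 (-0.49), and each lost its call in at least 1 alternative fit.

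Of the 13 mitochondrially encoded subunits, 10 were analysed, and 3 rose and 6 fell in Adult against P5, against 26.2% and 33.7% of all genes. Of the 6 that fell, 4 were listed at 0 in both Adult libraries, which leaves 3 risen and 2 fallen of 6. mt-Nd6 of complex I had 166 and 140.2 FPKM in Adult, against 47.1 and 44.9 FPKM at P5. mt-Co3 was listed at 0 in both Adult libraries, against 26.7 and 25.4 FPKM at P5, and mt-Nd3 was also listed at 0 in Adult. mt-Co1, a core subunit of complex IV chosen here because it was the highest, had 3281 and 2371 FPKM in Adult, against 5789 and 5141 FPKM at P5. For genes that every cell uses, a listed 0 can be a failed estimate, so no fold is given for them.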

How the data were processed

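The authors deposited isoform FPKM, with 0.0001 in place of 0. The submitters' processing notes name HISAT2, mm10, Cufflinks and Cuffdiff; versions and scaling between libraries are not given in the sources used here. The depth of the libraries is unknown, so precision rests on the spread between the 2 libraries of an age, and 10 further value columns were not used. Library names a and b at P5 are arbitrary, as both columns have the same header. The labels do not say that libraries came from separate animals, and p-values then measure only the spread between these samples, which may be technical.

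Isoform FPKM (0.0001 read as 0) were summed per symbol. log2(FPKM + 1), a scale that understates changes of low genes, entered limma 3.58.1 (R 4.3.3; two-sided, variance trend, all 6 libraries, no replicate block, with 3 residual and 3.26 prior degrees of freedom) for genes with a mean of at least 1 FPKM. The fit was tested on simulated data: log2 changes of 1 and 2 were recovered in 52% and 96% of cases in Adult against P5, with 8 false calls among 156. In Adult against E18 these were 45% and 86%, with 5 among 136, and in P5 against E18 55% and 93%, with 7 among 155. The simulated noise was normal and independent between genes, few genes changed, and all of them rose. Library scale did not differ there, so false calls from scaling could not be seen. Alternatives varied the pseudocount, filter, scaling, trend, isoform classes and libraries. Named genes were, per complex and comparison, the 3 largest called rises and falls, the highest member, all Sdh genes, Cycs, paralogs and assembly factors, and up to 3 called genes per pathway list; others are marked. Members and lists were chosen with earlier results of these data known. Replicate numbers did not pair the E18 and Adult libraries (r = 0.02 between deviations of same-numbered libraries). Cox4i1 and Ndufs3 were not analysed here. Promoters came from RefSeq (GRCm38.p6) and transcripts from the GRCm38 annotation.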

Additional observations from a re-analysis of the deposited data

How the results depend on the processing

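Called members of P5 against E18 were the least stable. The 5 risen members became 22 in TPM, 11 in the protein-coding scale, 12 after quantile normalization, and 2 without a variance trend or with only the 4 libraries of the comparison. Leaving out 1 library gave 0 to 3 risen and 0 to 1 fallen members, with medians of 0.15 to 0.36, and TPM gave a median of 0.38. In Adult against P5, risen members were 2 in TPM, and fallen ones 29 in the protein-coding scale and 33 after quantile normalization, with medians of -1.21 in TPM, -0.15 and -0.18. Leaving out 1 library gave 5 to 8 risen, 39 to 61 fallen and medians of -0.60 to -0.39. In Adult against E18, risen members were 1 in TPM, 31 in the protein-coding scale and 25 after quantile normalization, and fallen ones 76, 16 and 16, with medians of -0.86, 0.12 and 0.05, of which those of the protein-coding scale and quantile normalization were reversed. Leaving out 1 library gave 5 to 8 risen, 20 to 37 fallen and medians of -0.27 to -0.22. Single genes reversed in TPM in Adult against P5 were Atp5d (-0.39), Atp5sl (-0.10), Ndufa13 (-0.40), Ndufs7 (-0.36) and Uqcc1 (-0.07), and in Adult against E18 Atp5d (-0.23), Atp5sl (-0.22), Ndufa13 (-0.02) and Ndufs7 (-0.06), while Cox6a1 reached 0.00 after quantile normalization. Of the called named members, 21 of 38 in Adult against P5, 14 of 26 in Adult against E18 and 0 of 5 in P5 against E18 kept their call in every alternative. Risen isoforms of members were 1 without a filter and 11 in TPM in P5 against E18, with 0 fallen without a filter. In TPM they were 11 risen and 152 fallen in Adult against P5, and 7 and 136 in Adult against E18. With isoforms equal to annotated transcripts only, the Adult sum was 2226 FPKM for complex I and 1569 FPKM for complex IV. With the replicate block, 7 members rose and 33 fell in Adult against E18. For comparisons with P5, no paired analysis was possible because the P5 columns carry no replicate number. The causes of these differences were not tested, and 2 libraries per age limit every p-value.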
